A study of Mus musculus with 2 samples.

Results

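The Notch pathway was examined in cultured mouse keratinocytes through 10 genes, listed by name for their known roles in it. They are the receptors Notch1, Notch2 and Notch3, the ligands Jag1, Jag2 and Dll1, the nuclear factors Rbpj and Maml1, and the target genes Hes1 and Hey1. All 10 were found by symbol among the 47719 genes of the table, and 9 of them reached at least 1 CPM (counts per 1000000 reads) in a library. RNA was sequenced in 2 libraries, 1 from Pp6fl/fl cells, in which both alleles of the gene for the catalytic subunit of protein phosphatase 6 are floxed, and 1 from K5.Pp6fl/fl cells, the conditional knockout. The floxed allele is thus shared by both genotypes, and the deletion in K5.Pp6fl/fl is driven from the keratin 5 promoter, a promoter of basal keratinocytes. Tail skin of 8-week-old C57BL/6J mice was the source of the cells, which were cultured for 3 days. The labels do not give the number of mice behind each culture. With 1 library per genotype there is no spread between cultures, so every difference below compares these 2 libraries, has no replicate check, and carries a 95% interval of counting error only.

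Notch is a receptor on the cell surface that is cut when a ligand of the Jagged or Delta-like type on a neighbouring cell binds it. The released intracellular part enters the nucleus, joins the DNA-binding protein RBPJ and the coactivator Mastermind (MAML1), and turns on genes such as those of the HES and HEY repressors. In the epidermis, Notch signalling is known for promoting the switch of basal keratinocytes to spinous cells, the first layer above the basal one. Transcript levels of these genes do not measure how much receptor is cut.

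The promoter windows of the genes with the largest differences, Notch3 and Jag2, and of the gene for the DNA-binding factor, Rbpj, are shown because RBPJ and HES proteins read short motifs in DNA. The table of RefSeq promoters (GRCm38.p6) matched 8 of the 10 genes with 10 windows, of which the 250 bases upstream of the start site are used. Hes1 and Hey1 were not matched. The motifs searched on both strands were TGGGAA, the core of the RBPJ site, the longer GTGGGAA, which contains TGGGAA, and CACNAG, the N box bound by HES proteins. The sequences run 5′ to 3′ on the strand of the gene, and capitals mark a motif or its reverse complement. Notch3 lies at chr17:32166891-32167140 (minus strand), Jag2 at chr12:112929496-112929745 (minus strand) and Rbpj, by the first of its listed start sites, at chr5:53590096-53590345 (plus strand).
Notch3: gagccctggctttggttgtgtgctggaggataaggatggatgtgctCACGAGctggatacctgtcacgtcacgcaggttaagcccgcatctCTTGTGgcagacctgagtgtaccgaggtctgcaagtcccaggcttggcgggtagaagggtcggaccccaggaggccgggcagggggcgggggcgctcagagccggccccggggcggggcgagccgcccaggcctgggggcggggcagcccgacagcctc
Jag2: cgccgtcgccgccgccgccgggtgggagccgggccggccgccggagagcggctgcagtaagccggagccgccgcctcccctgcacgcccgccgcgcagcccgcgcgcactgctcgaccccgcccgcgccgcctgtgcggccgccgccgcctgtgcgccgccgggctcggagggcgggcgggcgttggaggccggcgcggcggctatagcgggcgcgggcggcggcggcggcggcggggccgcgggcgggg
Rbpj: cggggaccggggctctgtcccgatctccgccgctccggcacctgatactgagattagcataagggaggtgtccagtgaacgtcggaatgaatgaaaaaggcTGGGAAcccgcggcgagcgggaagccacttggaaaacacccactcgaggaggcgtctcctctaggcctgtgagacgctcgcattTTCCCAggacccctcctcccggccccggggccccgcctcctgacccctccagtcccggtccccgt
The Notch3 window held CACGAG, starting at position -204 from the start site, and CTTGTG, the reverse complement of an N box, at -159. The Jag2 window held none of the motifs and had a GC content of 87.2%, against a median of 52.4% over all 32851 windows. The Rbpj window held TGGGAA at -149 and its reverse complement TTCCCA at -65. Rbpj was the only matched gene with TGGGAA, which 21.6% of all windows hold. Notch1, Notch2 and Notch3 were the matched genes with an N box, which 36.7% of all windows hold, and none of the 10 windows held GTGGGAA, found in 5.42% of all. GENCODE places the outermost start of Jag2 at position -281 from this start site, so the Jag2 window lies inside a longer transcript there. It also lists Rbpj transcripts that begin further upstream, the outermost at -124194 from the first listed start site. For Notch1 the outermost start is at -12841, for Jag1 at -124 and for Dll1 at -1049 from its first listed start site. A motif is a description of these letters and not a measured binding site.

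The libraries summed to 19374772 estimated reads (Pp6fl/fl) and 17361257 (K5.Pp6fl/fl). The targeted gene, Ppp6c, had 1074 reads in Pp6fl/fl and 707 in K5.Pp6fl/fl, a ratio of CPM (fold, always K5.Pp6fl/fl over Pp6fl/fl) of 0.733 (0.665 to 0.806). By FPKM its difference was larger, at 30.6 and 16.8 (0.548-fold), and the authors' deposited table lists it at -0.86 on the log2 scale (FDR 5.71e-06). That deposited value lies close to the FPKM ratio and is not a separate estimate. The keratinocyte keratins Krt5 and Krt14 stood at 17801 and 30702 CPM in Pp6fl/fl, and at 17100 and 28559 CPM in K5.Pp6fl/fl. Of the markers of other cell types, the 9 immune genes summed to 0.0517 and 0.115 CPM and the 8 endothelial genes to 1.4 and 2.07 CPM, with no member of either list at 1 CPM. The 8 fibroblast genes summed to 3.46 and 2.76 CPM, with only Thy1 above 1 CPM. The 7 Merkel cell genes summed to 9.41 and 12.7 CPM, mainly from Krt8 (1.51-fold, 1.08 to 2.11) and Krt18 (1.23-fold, 0.948 to 1.59). The defining Merkel marker Krt20 had 0 reads in both libraries, and the other, Atoh1, had 0 reads and 1 read. The 8 melanocyte genes summed to 14.8 CPM in Pp6fl/fl and 22.1 CPM in K5.Pp6fl/fl, with the defining markers Pmel and Dct at folds of 2.23 (1.52 to 3.31) and 2.12 (1.36 to 3.36). In bulk RNA, a difference in the number of cells of a type and one in RNA per cell cannot be told apart.

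No expressed Notch gene differed by 2-fold between the genotypes. Among the 9 with at least 1 CPM, 0 were past the 2-fold rule in either direction, where 1.01% of the 12326 expressed genes were (0.811% higher and 0.195% lower). The rule asks for a log2 ratio of at least 1 in size after adding 0.5 CPM, at least 1 CPM in a library, and an interval without a ratio of 1. Smaller differences were present. The interval lay above 1 for 2 genes, Notch1 and Notch3, and below 1 for 3 genes, Jag2, Rbpj and Maml1. Over all expressed genes 16.6% had an interval above 1 and 17.4% below 1, together 34.0%, so an interval without 1 was common in these libraries. The interval narrows with the number of reads, so for abundant genes even a small difference can leave 1 outside it. The median log2 ratio of the 9 genes was 0.01, against -0.01 over all expressed genes, and by FPKM it was -0.05.

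**Figure D1:**
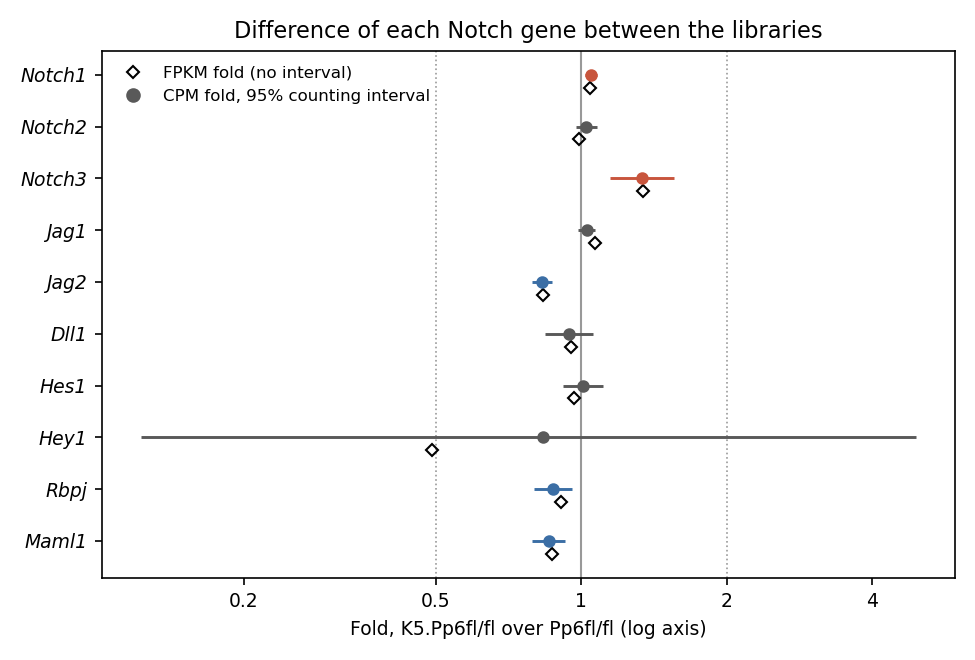
Fold of each of the 10 Notch genes, K5.Pp6fl/fl over Pp6fl/fl, on a log axis. Filled circles are CPM folds with 95% counting intervals (red, interval above 1; blue, below 1; grey, including 1), open diamonds are FPKM folds, and dotted lines mark 2-fold; Notch3 sits highest at 1.33, Jag2 lowest among the abundant genes at 0.83, and the bar of Hey1 spans both dotted lines.

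Of the receptors, Notch3 differed most. Notch1, the main Notch receptor of keratinocytes, had 10606 reads in Pp6fl/fl and 9979 in K5.Pp6fl/fl, or 548 and 574 CPM. The value was slightly higher in the knockout library, with a fold of 1.05 (1.02 to 1.08). Notch2, which is also made by epidermal cells, had 3179 and 2926 reads, or 164 and 168 CPM. Its fold of 1.02 (0.974 to 1.08) had an interval that included 1, and by FPKM its fold fell on the other side, at 0.987. Notch3, known in skin both from keratinocytes and from the mural cells that wrap blood vessels, had 312 and 374 reads, or 16.1 and 21.5 CPM. It was higher in K5.Pp6fl/fl by a fold of 1.33 (1.14 to 1.56), and by FPKM by 1.34. Notch4, the receptor of endothelial cells and no member of the 10, had 2 reads and 1 read.

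Because Notch3 is also a mural gene, the mural markers are given beside it. The 8 listed genes summed to 28.1 CPM in Pp6fl/fl and 26.6 CPM in K5.Pp6fl/fl, and 3 of them, Rgs5 (a defining marker), Des and Kcnj8, had no read in either library. Pdgfrb had 1 read in Pp6fl/fl and 0 in K5.Pp6fl/fl. The other defining marker, Cspg4, stood at 9.97 and 9.84 CPM (0.986-fold, 0.798 to 1.22), and Acta2, smooth muscle actin, at 15.8 and 13.4 CPM. Tagln, a further smooth muscle gene, was at 2.12 and 3.34 CPM (1.57-fold, 1.04 to 2.41). Of the 8 melanocyte markers, 3 (Pmel, Dct and Tyrp1) had an interval above 1 in the same direction as Notch3. The other 5, of which 3 were under 1 CPM in both libraries, had intervals that included 1, with Mitf at 7.03 and 6.33 CPM (0.9-fold, 0.694 to 1.17), and the part of melanocyte RNA in the Notch3 ratio was not tested.

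The make-up of the receptor pool was close in the libraries. Notch1 held 75.2% of the reads of Notch1, Notch2 and Notch3 in Pp6fl/fl (Wilson interval 74.5 to 75.9) and 75.1% in K5.Pp6fl/fl (74.4 to 75.9). Notch3 held 2.21% (1.98 to 2.47) and 2.82% (2.55 to 3.11), intervals that did not overlap. This restates the higher Notch3 level, since the same reads are used. The summed receptor reads had a fold of 1.05 (1.02 to 1.07).

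Among the ligands, Jag2 was lower in the knockout library and Jag1 was not. Jag1, a ligand of the suprabasal epidermis, had 5149 reads in Pp6fl/fl and 4744 in K5.Pp6fl/fl, or 266 and 273 CPM. The libraries were close, with a fold of 1.03 (0.986 to 1.07). Jag2, a ligand of basal keratinocytes, had 4239 and 3162 reads, or 219 and 182 CPM. It was lower in K5.Pp6fl/fl, with a fold of 0.83 (0.793 to 0.87), a difference of 17.0%. By FPKM the fold was 0.834. Dll1, the Delta-like ligand known from basal and stem cells of the epidermis, had 638 and 541 reads, or 33.0 and 31.1 CPM. Its fold of 0.944 (0.84 to 1.06) included 1.

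Dll1 overlaps a noncoding gene on the opposite strand, A930024N18Rik, over 20.6% of its exonic bases, and the library kit does not mark strand, so reads there cannot be assigned by strand. That gene had 62 and 72 reads, and the sum of both genes had a fold of 0.975 (0.873 to 1.09). No exonic overlap was annotated for Jag1, Jag2, Hes1, Hey1 or Rbpj. For Notch1, Notch2, Notch3 and Maml1 the overlapping genes held at most 6 reads in a library.

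The shares of ligand reads restate the lower Jag2 level, since they come from the same reads as the folds. Jag2 held 42.3% (41.3 to 43.2) of the Jag1, Jag2 and Dll1 reads in Pp6fl/fl and 37.4% (36.4 to 38.5) in K5.Pp6fl/fl. Jag1 held 51.4% (50.4 to 52.3) and 56.2% (55.1 to 57.2). Since the shares sum to the whole, a lower share of Jag2 raises that of Jag1, whose own fold of 1.03 included 1. Dll1 held 6.36% and 6.40%. The summed ligand reads had a fold of 0.938 (0.911 to 0.965).

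**Figure D2:**
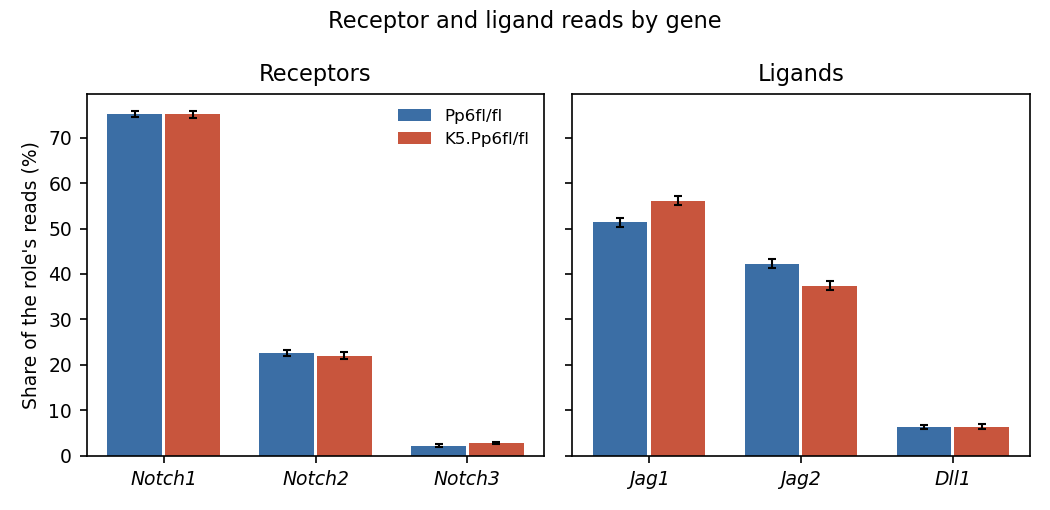
Share of reads, in percent, that each gene held among the 3 receptors (left) and the 3 ligands (right) in the Pp6fl/fl (blue) and K5.Pp6fl/fl (red) libraries, with 95% Wilson intervals of counting error. Notch1 holds 75.2% and 75.1% of the receptor reads, while Jag2 goes from 42.3% to 37.4% of the ligand reads.

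Both nuclear factors of the 10 genes were lower in the knockout library by a small amount. Rbpj, the DNA-binding partner of cleaved Notch, had 1082 reads in Pp6fl/fl and 849 in K5.Pp6fl/fl, or 55.9 and 48.8 CPM. The fold was 0.873 (0.797 to 0.956), a difference of 12.7%, and by FPKM it was 0.91. Maml1, a coactivator that joins the complex of Notch and RBPJ, had 1462 and 1126 reads, or 75.6 and 64.8 CPM. It was lower in K5.Pp6fl/fl, with a fold of 0.857 (0.792 to 0.927), a difference of 14.3%. Its relatives, which are not among the 10, lay on the other side. Maml3 stood at 28.8 and 35.4 CPM (1.23-fold, 1.09 to 1.38), and Maml2, named after its value was seen, at 11.2 and 13.5 CPM (1.20-fold, 0.994 to 1.45).

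The target genes were represented by Hes1 alone, since Hey1 was almost without reads. Hes1, a repressor that keeps progenitor cells from differentiating and a direct target of Notch in many tissues, had 912 reads in Pp6fl/fl and 825 in K5.Pp6fl/fl, or 47.1 and 47.5 CPM. The values were close, with a fold of 1.01 (0.915 to 1.11). By FPKM the fold was 0.966, on the other side of 1. Hey1, a related repressor best known from blood vessels and the heart, had 4 reads in Pp6fl/fl and 3 in K5.Pp6fl/fl, or 0.207 and 0.173 CPM. Its fold of 0.835 had an interval of 0.122 to 4.93, so no difference was detectable at this depth. The FPKM of Hey1 was 0.166 and 0.0817, a fold of 0.492 from nearly equal reads.

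Set per length, the genes fell into the same broad order in both libraries, with an exchange of the Jagged ligands. On the FPKM scale, in the Pp6fl/fl library, the order was Notch1 (61.4), Jag2 (58.3), Jag1 (54.1), Hes1 (42.9), Notch2 (17.5), Maml1 (14.5), Rbpj (12.8), Dll1 (12.7), Notch3 (2.08) and Hey1 (0.166). Only Rbpj and Dll1 were neighbours with overlapping counting intervals there. In the K5.Pp6fl/fl library the order was Notch1 (63.9), Jag1 (57.7), Jag2 (48.6), Hes1 (41.4), Notch2 (17.3), Maml1 (12.6), Dll1 (12.1), Rbpj (11.6), Notch3 (2.79) and Hey1 (0.0817). Jag1 and Jag2 thus changed places on this scale, with FPKM intervals that did not overlap in either library. These intervals do not cover the gene lengths that FPKM divides by. By reads Jag1 was ahead in both libraries, with ratios of Jag2 to Jag1 of 0.823 in Pp6fl/fl and 0.667 in K5.Pp6fl/fl. Maml1, Dll1 and Rbpj overlapped as neighbours in K5.Pp6fl/fl. Among expressed genes Notch1 lay at percentile 85.6 of FPKM in Pp6fl/fl and 86.2 in K5.Pp6fl/fl, and Notch3 at 14.3 and 17.3.

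**Figure D3:**
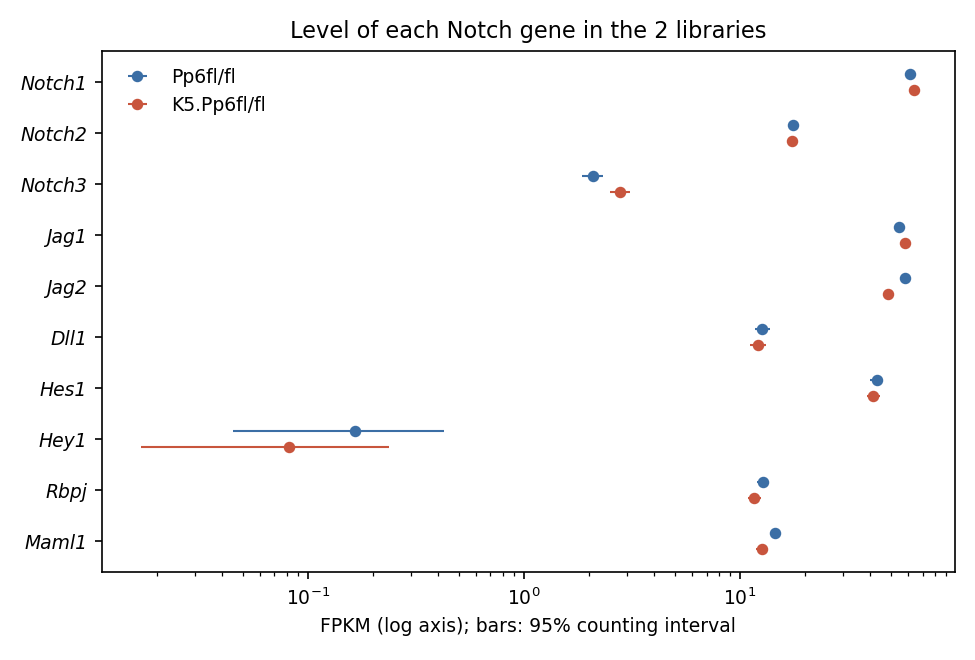
Level of each Notch gene in FPKM, on a log axis, in the Pp6fl/fl (blue) and K5.Pp6fl/fl (red) libraries, with 95% counting intervals. Notch1, Jag1, Jag2 and Hes1 lie between 41.4 and 63.9 FPKM in both libraries, Notch3 at 2.08 and 2.79, and Hey1 far below with wide bars.

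In the authors' deposited table, whose p-values rest on the same single library per genotype, the log2 fold change of Jag2 is -0.26 (FDR 0.000169). The same table lists Notch3 at 0.41 (FDR 0.00652) and Maml1 at -0.20 (FDR 0.0341). Rbpj stands in the authors' deposited table at -0.13 with an FDR of 0.121, and Notch1 at 0.06 with an FDR of 0.373. Jag1 (0.695), Notch2 (0.741), Dll1 (0.753), Hes1 (0.964) and Hey1 (1) have larger FDR values in the authors' deposited table.

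The wider pathway was read from a list of 78 further genes, of which 77 were in the table and 61 had at least 1 CPM. Of these, 0 were past the 2-fold rule, 12 had an interval above 1 and 12 below 1, and the median log2 ratio was -0.01, equal at this precision to that of all expressed genes. Over all expressed genes, 1.01% were past the 2-fold rule, 16.6% had an interval above 1 and 17.4% below 1.

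The largest ratios of the wider list belonged to Dlk2 and Fhl1. Dlk2, a Delta-like protein without the domain that activates Notch, stood at 57.4 CPM in Pp6fl/fl and 32.9 CPM in K5.Pp6fl/fl (0.574-fold, 0.518 to 0.635). Fhl1, one of whose isoforms binds RBPJ and represses it, stood at 74.3 and 42.0 CPM (0.565-fold, 0.517 to 0.619). The table has no values per isoform. Both genes had log2 ratios, -0.79 and -0.82, below the middle 95% of expressed genes, which ran from -0.47 to 0.69. None of the 10 genes lay outside that range.

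Among genes that make ligand and receptor ready for signalling, 0 were past the 2-fold rule (1.01% of all expressed genes). In the list of ubiquitin ligases and endocytic adaptors, 12 of 14 genes were expressed, 2 had an interval above 1 (16.6% of all expressed genes) and 1 below 1 (17.4% of all). The ligand-activating ligase Neurl1b was at 8.32 and 11.3 CPM (1.36-fold, 1.10 to 1.69), Itch, which marks Notch for degradation, at 71.0 and 76.7 CPM (1.08-fold, 1.002 to 1.17), and the adaptor Numbl at 53.1 and 47.0 CPM (0.885-fold, 0.807 to 0.972). Among 5 expressed glycosyltransferases only Pofut1, which adds O-fucose to Notch, had an interval without 1, at 42.1 and 35.8 CPM (0.851-fold, 0.765 to 0.946). By FPKM Pofut1 was at a fold of 1.02, on the other side of 1. All 10 protease genes were expressed. Adam10, which makes the first cut after ligand binding, was at 82.4 and 90.6 CPM (1.10-fold, 1.02 to 1.18), and Aph1b, a subunit of the gamma-secretase that makes the second, at 11.6 and 14.3 CPM (1.23-fold, 1.02 to 1.48). The other 8 protease genes had intervals that included 1.

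In the nuclear complex, 12 of 13 genes were expressed, with 2 intervals above 1 and 3 below 1, Rbpj and Maml1 among the latter, beside 16.6% and 17.4% of all expressed genes. The acetyltransferase Kat2b stood at 15.5 and 18.6 CPM (1.21-fold, 1.03 to 1.42), and 1.50-fold by FPKM. All 14 corepressor genes were expressed. Of these, 2 had an interval above 1 (16.6% of all expressed genes) and 6 below 1, Fhl1 included (17.4% of all). The Groucho-type corepressors Tle1 and Tle4 were at folds of 0.873 (0.784 to 0.971) and 0.857 (0.744 to 0.986).

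**Figure D4:**
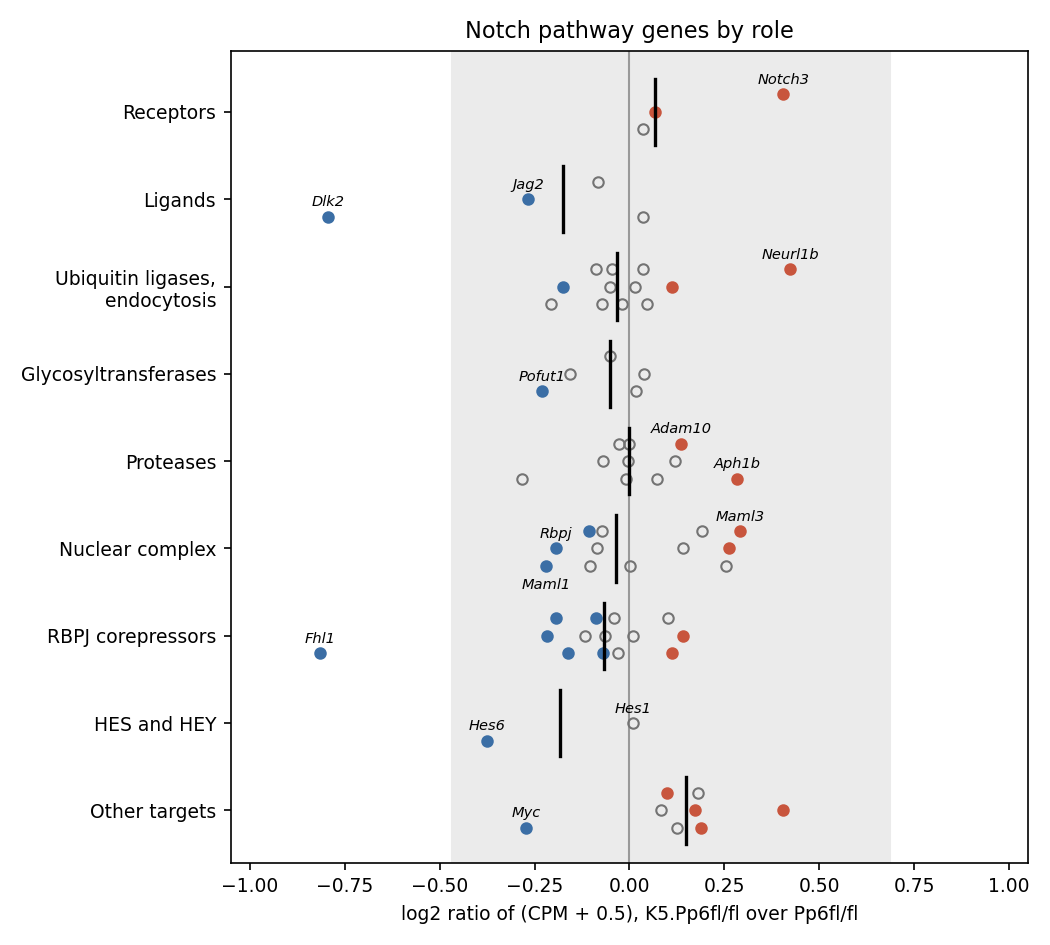
Log2 ratio of each expressed Notch pathway gene by role, K5.Pp6fl/fl over Pp6fl/fl, after adding 0.5 CPM. Filled points have a 95% counting interval above 1 (red) or below 1 (blue), open points include 1, black bars are medians, and the grey band is the middle 95% of all expressed genes, -0.47 to 0.69; Dlk2 and Fhl1 are the points outside the band.

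Of the HES and HEY repressors, only Hes1 and Hes6 were expressed. Hes6, which can oppose Hes1, stood at 9.25 and 7.02 CPM (0.759-fold, 0.598 to 0.96). Hes2, Hes3, Hes5, Hey2 and Heyl had 0 reads in both libraries. A count of 0 was taken to allow up to 3 reads, or 0.155 CPM in Pp6fl/fl and 0.173 CPM in K5.Pp6fl/fl. Hes7 had 8 and 2 reads. The ligands Dll4 and Dlk1 also had 0 reads, with the same limits, and Dll3 had 1 read and 2 reads.

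Other known Notch targets mostly had ratios above 1. Of 8 expressed genes, 7 had a log2 ratio above 0 and 1 below it, where 5771 of all 12326 expressed genes were above 0. Of the 8, 4 had an interval above 1 (16.6% of all expressed genes) and 1 below 1 (17.4% of all), and the median log2 ratio was 0.15. Cdkn1a, which encodes the cell cycle inhibitor p21, was at 362 and 413 CPM (1.14-fold, 1.10 to 1.18). Myc, a growth factor-responsive transcription factor, went the other way, at 273 and 226 CPM (0.828-fold, 0.794 to 0.863). Nrarp, a feedback inhibitor of Notch and one of its direct targets, was at 4.75 and 5.06 CPM (1.06-fold, 0.786 to 1.44) and is named from outside the rule. These genes also answer to other pathways, and their relation to the 10 genes was not tested.

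Genes of the spinous and basal layers are given beside the Notch genes because of the known role of Notch in the passage between them. Of 16 expressed spinous genes, 12 had a log2 ratio above 0, 11 an interval above 1 and 2 an interval below 1, with a median of 0.35. Over all expressed genes, the background for both layers, 16.6% had an interval above 1 and 17.4% below 1, with a median of -0.01. None of the spinous genes was past the 2-fold rule. The list also holds envelope genes such as Ivl. The early spinous keratins were not among the 11, so the median of the list does not describe them. The 2 genes with an interval below 1 were Krt10 and the transcription factor Klf4 (0.94-fold, 0.907 to 0.974). Krt10 was at 20.9 and 16.1 CPM (0.77-fold, 0.658 to 0.898), and Krt1 at 13.3 and 12.5 CPM (0.944-fold, 0.785 to 1.14). Ivl, the envelope protein involucrin, was at 45.1 and 58.5 CPM (1.30-fold, 1.18 to 1.42). Of 15 basal genes, 5 had an interval above 1 and 8 below 1, with a median log2 ratio of -0.06. Trp63, the basal transcription factor p63 that is known to oppose Notch, stood at 996 and 773 CPM (0.776-fold, 0.759 to 0.793). Krt5 and Krt14 were at 0.961 (0.956 to 0.965) and 0.93 (0.927 to 0.934).

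**Figure D5:**
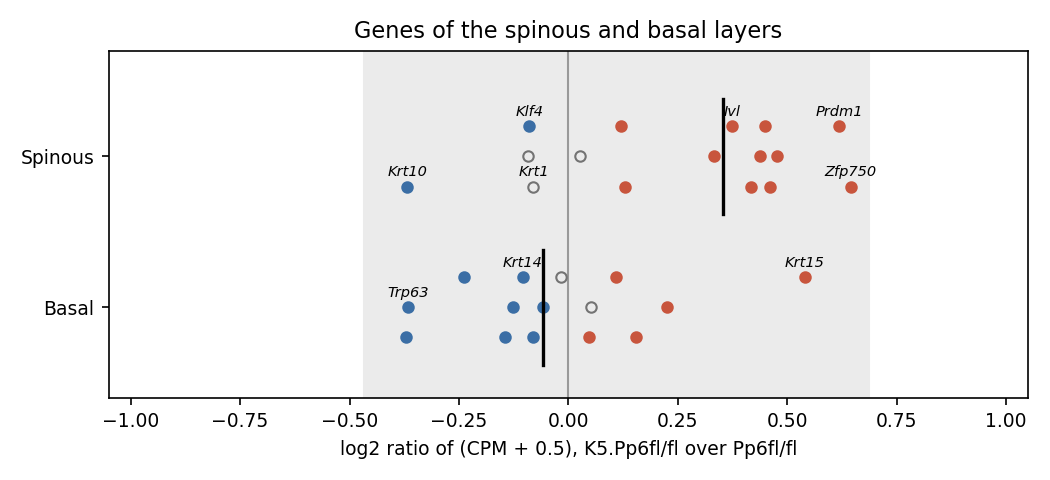
Log2 ratio of spinous (16) and basal (15) genes, K5.Pp6fl/fl over Pp6fl/fl, after adding 0.5 CPM, with the same colours, bars and band as in the plot of pathway roles. The listed spinous genes have a median of 0.35, with the early spinous keratins Krt10 lowest at -0.37 and Krt1 at -0.08. The basal genes have a median of -0.06.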

How the data were processed

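RNA was measured in 1 library per genotype, grouped by the genotype label. Per the labels' protocols, RNA was extracted with Trizol, captured on oligo(dT) beads and made into libraries with a TruSeq kit, which is not strand-specific. RSEM, edgeR and mm8 are named without version or role in the submitters' processing notes; for the aligner and annotation, the sources used here give none.

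The authors deposited estimated counts that carry a constant factor in each library. In Pp6fl/fl 97.4% and in K5.Pp6fl/fl 97.4% of values under 100 reads became whole, within 0.01 reads, on division by 1 step per column, and these estimated reads were used. The design had assumed unscaled counts. The FPKM values, log2 fold changes, p-values and FDR are as the authors deposited them.

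Symbols matched 47219 of 47719 gene IDs (GENCODE M21 annotation of GRCm38). Library sizes were scaled by TMM for the CPM values (edgeR 4.0.16, R 4.3.3). Folds have exact conditional binomial (Clopper-Pearson) intervals and single counts exact Poisson intervals at 95%, from SciPy 1.17.1. For a count of 0 a fixed limit of 3 reads is given in place of the Poisson interval. FPKM intervals are the Poisson intervals of the reads scaled to FPKM. All intervals cover counting error only: the reads carry no molecular identifiers and need not be independent molecules. The calculations were tested on simulated data.

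The 10 genes and the gene lists were chosen with earlier results of these data known. The 10 genes are always named. In each wider list the rule names genes past the 2-fold rule, then up to 3 with the largest log2 ratio at 5 CPM or more and an interval without 1. One gene that the rule takes is not reported here. Other genes are named for context, after their values were seen. There were 8 alternative settings of scaling, pseudocount, floor and measure.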

Additional observations from a re-analysis of the deposited data

How the results depend on the processing

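Scaling by total counts, median-of-ratios factors or the upper quartile, a pseudocount of 0.1 or 2 CPM, no floor or a floor of 5 CPM, and FPKM in place of counts moved no count of calls over the 10 genes or the wider pathway by more than 1.5 times. The log2 ratio of Notch3 ran from 0.35 to 0.41 over its 6 alternatives and that of Jag2 from -0.27 to -0.26. Notch2 and Hes1, whose intervals include 1, changed sign with FPKM, to -0.02 and -0.05. The other 8 genes kept their sign in all 6. The median log2 ratio of the 9 expressed genes, 0.01, was -0.03 over all 10 without a floor and -0.05 by FPKM, and that of the wider pathway, -0.01, was 0.02 by FPKM. The list of fixed alternatives left out the pseudocount and FPKM for the interval counts, which do not use them. No paired analysis was possible because there is 1 library per genotype, and for the same reason no library could be left out. Depth limits Hey1 most, with 4 and 3 reads.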
